A study of Mus musculus with 22 samples.

Results

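The genes described here are the mouse Wnt ligands (Wnt), their Frizzled (Fzd), Lrp5, Lrp6, Ror1 and Ror2 receptors, and the secreted antagonists of the Sfrp, Dkk, Wif1 and Frzb families. They were chosen by symbol, with a level of at least 0.5 TPM (a transcript level scaled for gene length and library depth) in any of 20 RNA-seq libraries. Of 43 genes with such symbols, 40 passed, among the 24130 genes in each deposited table. They comprise 16 of 19 ligands, 10 Frizzled receptors, 2 Lrp co-receptors, 2 Ror receptors, 6 antagonists that bind Wnt proteins (Sfrp1, Sfrp2, Sfrp4, Sfrp5, Frzb and Wif1) and 4 Dkk proteins. Wnt1, Wnt8b and Wnt9b never reached 0.5 TPM; their highest levels were 0.05, 0.14 and 0.14 TPM.

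The study reprogrammed mouse embryonic fibroblasts (MEFs) toward pluripotency with transfected transcription factors. The cells of these 20 libraries were passage P2 MEFs from OG2 transgenic embryos of a mixed 129SVJ, C57B6 and CBA background. RNA was taken on the stated day after a transfection of 2 days. The OSK arm (Oct4, Sox2 and Klf4) was sampled on days 0, 1, 3, 5 and 7. The OvSvK arm, in which Oct4 and Sox2 each carry the VP16 activation domain and Klf4 is unmodified, was sampled on days 0, 1, 2, 3 and 4. Cells given GFP were the control on days 1, 3, 5 and 7; the sources used here do not state their medium. The other 3 OSK arms lacked 1 component of the medium each, on days 3 and 7: basic fibroblast growth factor (bFGF), vitamin C, or the GSK3 inhibitors CHIR-99021 and LiCl. The omission arms are named in the labels by what was left out, so the full OSK medium held all of these components. Each arm and day is 1 library, so no condition has a replicate. Every p-value below measures how a difference varied between days, or how far values departed from a line over days, and not the spread between repeated cultures.

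Wnt proteins are secreted lipid-modified ligands that bind Frizzled receptors on the cell surface. Together with the co-receptors Lrp5 and Lrp6 they inactivate the complex in which the kinase GSK3 marks beta-catenin for destruction, and beta-catenin then activates genes with TCF and LEF factors. Ror1 and Ror2 are receptors for Wnt5a in beta-catenin-independent signalling. Sfrp proteins, Frzb and Wif1 bind Wnt ligands outside the cell, whereas Dkk1, Dkk2 and Dkk4 bind Lrp5 and Lrp6; Dkk3 is a divergent family member. CHIR-99021 and LiCl act on GSK3 itself, downstream of all genes described here, and Wnt signalling is known to support the pluripotent state of mouse embryonic stem cells.

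The libraries held between 7872278 and 20720724 expected counts. The labels give no batch, but 1 split among the libraries was measured: the share of Rpsa-ps10 among the counts of Rpsa and that near-identical pseudogene was 3.32 to 7.78% in 8 libraries (OSK days 1 to 7 and GFP) and 0.125 to 0.478% in the other 12. OSK against GFP therefore lies within 1 set of libraries. OvSvK against GFP, OvSvK against OSK from day 1 on, each omission against OSK, and OSK day 0 against later OSK days lie across both sets, and what belongs to the arm cannot be told apart from what belongs to the set. OSK day 0 also stood apart in composition (normalization factor 0.665, against 0.854 or more elsewhere). Genes of the lowest of 5 groups by GC content departed most from their mean over libraries in OSK day 0 and GFP day 1. These departures were -1.53 and -1.06 log2 units, against -0.43 (OSK day 1) to 0.56 (OSK day 7) elsewhere. Fibroblast markers (8 genes, Col1a1 and Dcn among them) were detected in every library. Their summed level was 4854 to 12511 TPM in GFP, ran from 6690 TPM on day 0 to 1137 TPM on day 7 in OSK, and from 6267 to 1584 TPM in OvSvK. Their 8 counterparts for pluripotent cells summed to 787 TPM in OSK on day 7 and 889 TPM in OvSvK on day 4, and to at most 1.36 TPM in GFP, where Dppa5a and Fgf4 were at 0. In bulk RNA, fewer cells of a type and less RNA per cell cannot be told apart.

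Across the family, Wnt5a, a ligand mostly linked to beta-catenin-independent signalling, was the most abundant ligand in 18 of the 20 libraries. It made up 67.6% of the summed ligand level in GFP on day 7. The exceptions were OSK on day 0, where Wnt2 led with 31.3 TPM, and OvSvK on day 4, where Wnt8a reached 63.1 TPM and 50.3% of the ligand total. The leading Frizzled receptor changed as well: Fzd1 in GFP from day 3 (149.54, 92.73 and 120.94 TPM), Fzd5 in all 6 omission libraries and in OSK on days 3 and 7, and Fzd10 in OvSvK on day 4 (37.94 TPM). Among the Wnt-binding antagonists, Sfrp2 led in GFP (52.6 to 85.4% of their total), and Sfrp1 led in OSK and OvSvK from day 1 on (37.6 to 70.3%).

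**Figure D1:**
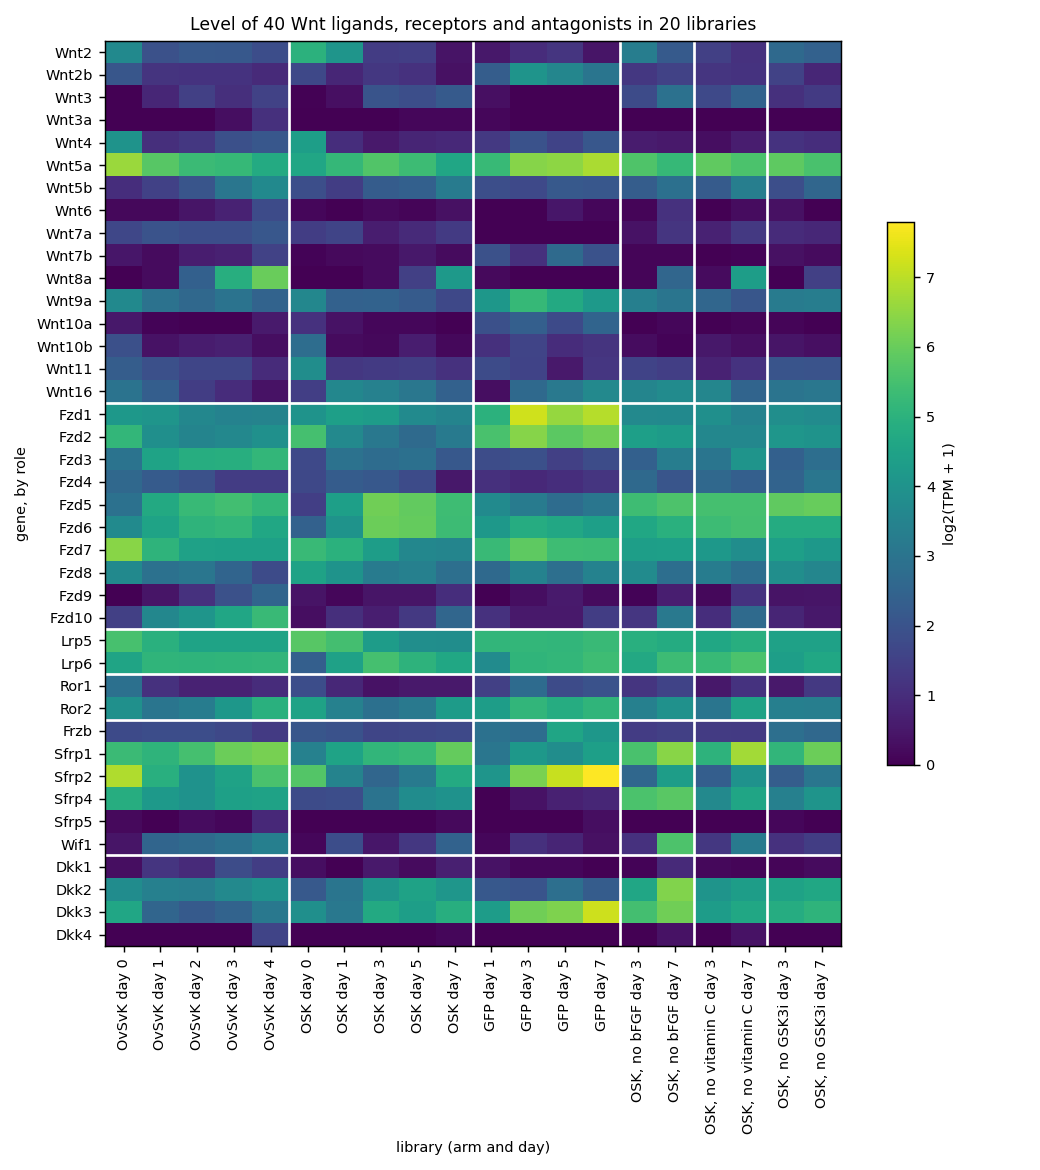
Level of each of the 40 genes (vertical axis, grouped by role) in each of the 20 libraries (horizontal axis, grouped by arm), as log2(TPM + 1) by colour; white lines separate roles and arms. Wnt5a is bright in most columns, Fzd1, Sfrp2 and Dkk3 are brightest in GFP, and Wnt8a and Fzd10 are brightest in OvSvK on day 4.

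Promoter sequence is shown first for 3 ligands because they illustrate what a search for the TCF and LEF motif found in the family. The motif searched was CTTTGAT on either strand, in windows from 250 bases before to 50 bases after a RefSeq transcript start (GRCm38.p6). RefSeq windows were given for 26 of the 40 genes, 29 windows in all. The motif was in 2 of these 29 windows (6.9%), against 3.73% of all 32851 windows of that length. The 2 windows belong to Wnt11 and to an internal start of Wnt5b. The windows of the family held a median of 25 CG dinucleotides, against 7 over all windows. The 250 bases before the start are printed 5′ to 3′ on the strand of the gene, with the motif in capitals. Wnt3, a ligand whose level without GSK3 inhibitors is described below, has no copy in this window; its last 25 bases overlap an annotated exon.
Wnt5b, chr6:119449387-119449636, minus strand: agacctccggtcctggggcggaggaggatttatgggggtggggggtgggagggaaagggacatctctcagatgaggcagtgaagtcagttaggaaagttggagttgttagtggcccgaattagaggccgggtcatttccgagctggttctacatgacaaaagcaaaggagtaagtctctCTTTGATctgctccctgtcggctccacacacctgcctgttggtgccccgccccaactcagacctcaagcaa
Wnt11, chr7:98834862-98835111, plus strand: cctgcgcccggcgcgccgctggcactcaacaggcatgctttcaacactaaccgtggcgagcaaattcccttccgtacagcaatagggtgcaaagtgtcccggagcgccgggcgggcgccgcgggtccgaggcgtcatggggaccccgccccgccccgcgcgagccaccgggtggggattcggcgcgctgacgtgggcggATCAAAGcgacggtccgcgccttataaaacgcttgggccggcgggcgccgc
Wnt3, chr11:103773925-103774174, plus strand: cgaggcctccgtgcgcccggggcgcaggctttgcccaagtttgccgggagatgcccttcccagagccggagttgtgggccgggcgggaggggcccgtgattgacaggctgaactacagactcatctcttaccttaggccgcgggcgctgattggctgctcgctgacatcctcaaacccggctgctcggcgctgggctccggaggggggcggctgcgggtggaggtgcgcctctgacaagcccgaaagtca
The motif starts 71 bases before the start in Wnt5b and, as its reverse complement, 51 bases before the start in Wnt11. A match in these letters is a description of the sequence and says nothing of whether a factor binds there.

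The first comparison, OSK against GFP on days 1, 3, 5 and 7, asks how the family differs between factor-transfected and control cells of the same day. Most ligands and receptors that differed were lower in OSK: Fzd1, Fzd2, Fzd7, Ror1, Ror2 and the ligands Wnt2b, Wnt4, Wnt5a, Wnt7b, Wnt9a and Wnt10a. Sfrp2, Frzb and Dkk3 were lower too, and 4 genes were higher: Sfrp4, Sfrp1, Dkk2 and Fzd5. Of the 40 genes, 28 had enough counts to be tested with edgeR's quasi-likelihood test, and 18 passed an adjusted p of 0.05 (Benjamini-Hochberg over 12680 genes), 4 higher and 14 lower. Over all genes tested 30.7% passed, 16.8% higher and 14% lower. The median log2 difference of the 28 genes was -1.22, against 0.05 over all genes.

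Among the ligands, Wnt9a (chr11:59306928-59333552, mm10) read 16.42, 36.09, 25.57 and 17.32 TPM in GFP and 4.38, 4.52, 3.71 and 2.23 TPM in OSK. Every GFP value was above every OSK value, and the log2 difference was -2.84 ± 0.25 (SE, adjusted p = 0.00193). Wnt2b, a relative of Wnt2 that signals through beta-catenin, read 3.94, 15.32, 10.90 and 7.18 TPM in GFP and 0.77, 1.40, 1.16 and 0.28 TPM in OSK (-3.57 ± 0.40, adjusted p = 0.00356). Wnt7b read 2.85, 1.11, 5.49 and 2.91 TPM in GFP and at most 0.41 TPM in OSK (-3.92 ± 0.38, adjusted p = 0.00248). Wnt10a read 2.77, 4.14, 2.35 and 4.72 TPM in GFP and 0.31, 0.11, 0.11 and 0 TPM in OSK (-4.89 ± 0.73, adjusted p = 0.00779). For these ligands the lowest GFP library lay above the highest OSK library. Wnt4 was lower in OSK as well (0.46 to 1.01 TPM against 1.45 to 3.37 TPM). Wnt5a read 36.91, 82.79, 87.72 and 112.03 TPM in GFP and 35.20, 50.27, 39.32 and 23.63 TPM in OSK. The Wnt5a levels overlapped on day 1 and moved apart later; its log2 difference of -1.26 ± 0.35 (adjusted p = 0.0437) lost its call without day 3, 5 or 7 (adjusted p = 0.122, 0.176 and 0.0652), with limma (0.068) and after removal of a GC trend (0.0588). The counts of Wnt5a, Wnt7b, Sfrp2 and Fzd6 may include reads of annotated genes on the opposite strand (Gm2670, AU022754, Gm26771 and Gm26704), since the sources used here do not state whether counting used strand.

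Among the receptors, Fzd1 read 31.29, 149.54, 92.73 and 120.94 TPM in GFP and 20.02, 18.72, 12.33 and 10.37 TPM in OSK. The ranges did not overlap and the gap widened after day 1 (log2 difference -2.75 ± 0.51, adjusted p = 0.0146). Fzd2 read 46.34, 82.91, 56.14 and 67.22 TPM in GFP and 11.79, 7.72, 5.50 and 8.11 TPM in OSK, a difference of -3.12 ± 0.29 (adjusted p = 0.00244). Fzd7 ran from 37.80 to 56.87 TPM in GFP and from 30.39 down to 10.63 TPM in OSK (-1.60 ± 0.30, adjusted p = 0.0144). Fzd5 went the other way. It read 12.41, 8.38, 5.80 and 7.29 TPM in GFP and 20.27, 67.48, 59.82 and 40.90 TPM in OSK (2.25 ± 0.48, adjusted p = 0.0219), so that each OSK library exceeded each GFP library. Fzd6, at 16.66 to 27.12 TPM in GFP and 15.19, 65.74, 61.06 and 39.75 TPM in OSK, did not pass (0.71 ± 0.29, adjusted p = 0.117). Ror2, the receptor through which Wnt5a acts on cell movement, read 19.46 to 34.19 TPM in GFP and 6.39 to 18.53 TPM in OSK (-1.66 ± 0.32, adjusted p = 0.016), and Ror1 1.76 to 5.61 TPM against 0.29 to 0.82 TPM. The co-receptors did not pass: Lrp5 differed by -1.18 ± 0.38 (adjusted p = 0.0671) and Lrp6 by -0.11 ± 0.25 (adjusted p = 0.764).

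Antagonists moved in both directions. Sfrp4 had a count of 0 in GFP on day 1 and read 0.31, 0.63 and 0.79 TPM on the later days, against 2.61, 6.90, 12.77 and 14.59 TPM in OSK. It was higher in OSK on every day (4.29 ± 0.44, adjusted p = 0.00278). Sfrp1 read 7.37, 16.68, 13.26 and 19.98 TPM in GFP and 21.85, 33.84, 37.11 and 61.58 TPM in OSK (1.25 ± 0.18, adjusted p = 0.0064), and Dkk2, which binds Lrp5 and Lrp6, read 3.11 to 6.16 TPM in GFP and 7.18 to 21.32 TPM in OSK (1.65 ± 0.27, adjusted p = 0.0102). All 3 were higher in OSK with no overlap of the ranges in TPM. In the authors' deposited scores, described below, Dkk2 read 399, 412, 448 and 368 in OSK and 410, 214, 261 and 194 in GFP. Its ranges overlapped there, with day 1 in the opposite order. The Sfrp1 scores also overlapped (521 on OSK day 1 and 563 on GFP day 7), and those of Sfrp4 did not. Sfrp2 was lower in OSK on every day: 15.58, 73.54, 140.44 and 221.38 TPM in GFP and 10.10, 4.91, 8.00 and 26.27 TPM in OSK. Its day 1 values were close together, and the 221.38 TPM of GFP day 7 was the highest level of any antagonist in the 20 libraries. The log2 difference was -3.16 ± 0.65 (adjusted p = 0.019). Frzb, also known as Sfrp3, read 6.54, 5.95, 22.94 and 16.49 TPM in GFP and 2.12 to 2.87 TPM in OSK (-2.37 ± 0.39, adjusted p = 0.0105). Dkk3 read 18.83, 68.54, 77.67 and 147.17 TPM in GFP and 7.76, 25.81, 19.79 and 28.75 TPM in OSK (-1.94 ± 0.21, adjusted p = 0.00345). Dkk3 was lower in OSK on each matched day, though the highest OSK level exceeded that of GFP on day 1.

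**Figure D2:**
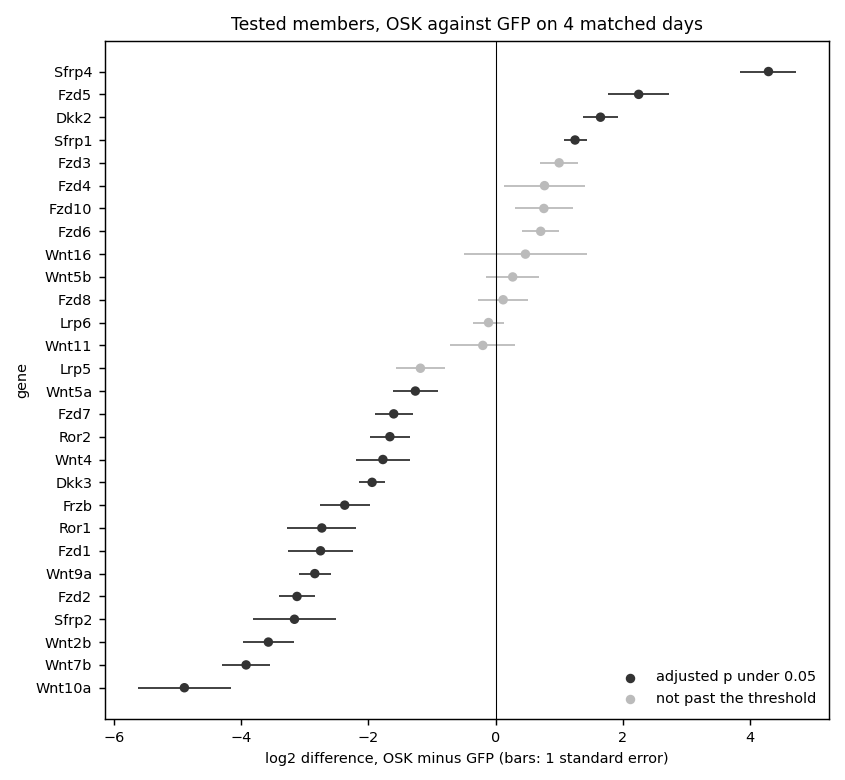
Log2 difference between OSK and GFP (horizontal axis) for the 28 tested genes (vertical axis); points are estimates over 4 matched days and bars are 1 standard error. Dark points passed an adjusted p of 0.05: 14 lie left of 0, from Wnt10a (-4.89) to Wnt5a (-1.26), and 4 lie right of it, up to Sfrp4 (4.29).

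Without overlap of the 4 OSK and 4 GFP levels, 12 of the 40 genes were lower in OSK and 6 were higher, where 8.46% and 16.1% of all 16285 genes that reached 0.5 TPM in these libraries were. Some of the 40, Dkk4 and Sfrp5 among them, did not reach 0.5 TPM in these libraries. The 12 genes that were not tested had low counts in all or most of these libraries. Of these, Wnt2 still read 15.90 TPM on OSK day 1 and Wnt8a 17.13 TPM on OSK day 7. Wnt7a, also not tested, had 0 counts in all 4 GFP libraries, where a count of 0 allows up to 3 counts. It read 2.05, 0.53, 0.92 and 1.51 TPM in OSK. Wnt3 read 0.24 TPM in GFP on day 1 and had no counts later, against 0.24, 3.07, 2.70 and 3.59 TPM in OSK. Wnt10b was at 0.99 to 2.06 TPM in GFP and 0.13 to 0.53 TPM in OSK. The calls on Wnt2b, Wnt7b, Wnt9a, Fzd2, Sfrp4 and Dkk3 held in every alternative run. Of the 18 calls, 8 were kept without day 3 and 6 without day 5, where 1 gene not tested in the fit of all days was also called. The fibroblast markers summed to 11838, 10143 and 12511 TPM in GFP on days 3, 5 and 7 and to 3825, 1817 and 1137 TPM in OSK, with the opposite order on day 1 (4854 and 6016 TPM). Endothelial markers (5 genes, Tie1 at 0 in GFP) summed to 5.96 to 7.07 TPM in GFP and 39.5 to 111 TPM in OSK on these days. The part of these cell types in the differences was not tested.

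**Figure D3:**
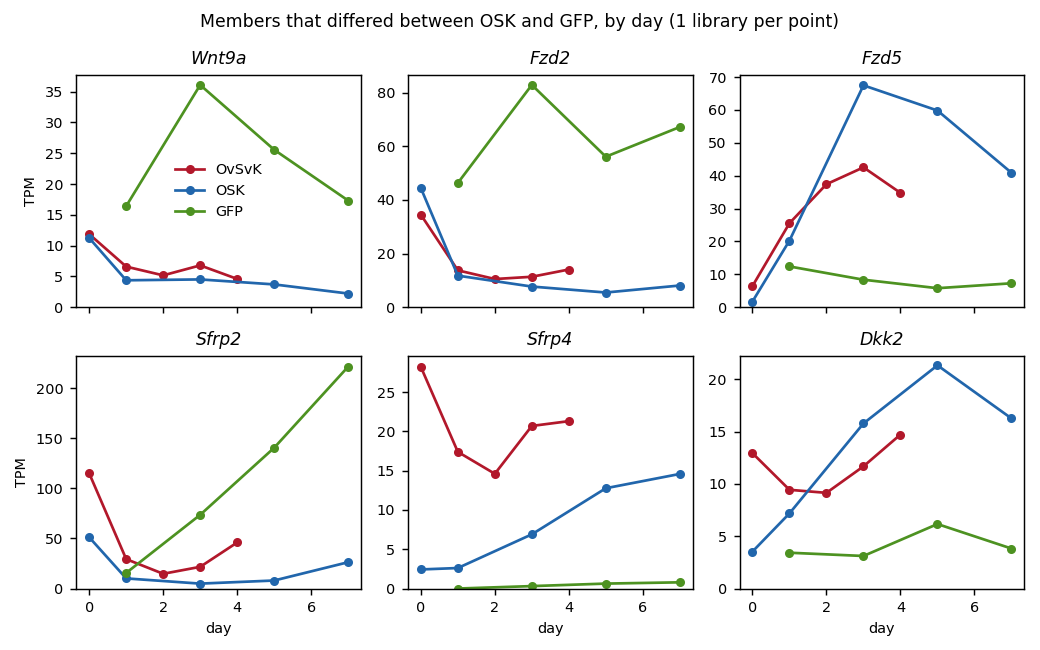
Level in TPM (vertical axes) by day (horizontal axes) of 6 genes that differed between OSK and GFP, in OvSvK (red), OSK (blue) and GFP (green); each point is 1 library. Wnt9a, Fzd2 and Sfrp2 are highest in GFP from day 3 on, with Sfrp2 reaching 221.38 TPM on day 7, while Fzd5, Sfrp4 and Dkk2 stay low there.

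The next question was how the family changed over days within each arm, tested as a line over days in 1 fit of OvSvK, OSK and GFP (14 libraries, 36 of the 40 genes tested). In OSK 6 genes rose and 14 fell (20 of 36). The same test called 45.5% of all 13848 genes, 21.5% rising and 24% falling, so that calls are common in this arm at large. Of the 20 OSK calls in the family, 14 were kept after removal of a GC trend and 12 with limma. Only 8 genes were called without OSK day 0, which stood apart in composition: Wnt8a, Wnt5b, Sfrp1 and Sfrp4 rising, and Wnt2, Lrp5, Fzd4 and Fzd7 falling. Wnt8a, a ligand of the early embryo, had no counts on days 0 and 1 and read 0.16, 1.77 and 17.13 TPM on days 3, 5 and 7. It rose by 1.64 ± 0.18 log2 units per day (adjusted p = 0.00047), and was highest on day 7. Wnt2 read 31.30, 15.90, 1.62, 1.71 and 0.34 TPM and fell by 1.03 ± 0.14 per day on the log2 scale (adjusted p = 0.000704). Its first 2 libraries were far above the last 3. Lrp5 read 53.36, 43.18, 18.76, 13.30 and 13.16 TPM and fell by 0.48 ± 0.06 per day (adjusted p = 0.000569). Sfrp4, at 2.43, 2.61, 6.90, 12.77 and 14.59 TPM, rose by 0.30 ± 0.08 per day (adjusted p = 0.0152). In the authors' scores Sfrp4 was highest on day 0, at 106, against 28, 34, 55 and 66 on days 1, 3, 5 and 7. Among the calls lost without day 0 were those of Wnt4 (19.84 TPM on day 0 and 0.46 to 1.01 TPM later), Wnt10b (5.92 and at most 0.53 TPM) and Wnt11 (13.11 and at most 1.65 TPM), whose high values were on that day alone.

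In OvSvK 3 genes rose and 5 fell (8 of 36, against 10.3% of all genes, 4.49% rising and 5.81% falling). Wnt8a had no counts on day 0 and read 0.16, 4.21, 28.37 and 63.09 TPM on days 1 to 4, a rise of 2.59 ± 0.28 per day on the log2 scale (adjusted p = 0.00124). Its level first passed that of Wnt9a on day 3 in OvSvK and on day 7 in OSK. Wnt5b read 1.01, 1.82, 3.19, 7.36 and 11.99 TPM (0.80 ± 0.17, adjusted p = 0.015) and Fzd9 had no counts on day 0 and then 0.36, 1.14, 2.80 and 4.85 TPM (1.33 ± 0.31, adjusted p = 0.0209). All 3 were highest on day 4. Wnt5a read 97.75, 54.12, 38.67, 36.06 and 26.32 TPM and fell by 0.58 ± 0.09 per day (adjusted p = 0.00351), and Wnt16 went from 6.77 to 0.29 TPM (fell by 1.15 ± 0.27 per day, adjusted p = 0.0211). Fzd4, Fzd7 and Fzd8 fell too, by 0.58 to 0.62 per day on the log2 scale; Fzd7 read 83.21 TPM on day 0 and 20.56 to 32.68 TPM later. Without OvSvK day 0 only Wnt8a was called (for Wnt5a, adjusted p = 0.135), and without day 3 or day 4 there were 3 calls each. Fzd10 did not pass (0.79 ± 0.24, adjusted p = 0.0625), with values of 1.77, 11.25, 15.62, 23.49 and 37.94 TPM. The low genes Wnt6 (2.41 TPM), Dkk4 (2.03 TPM), Wnt3a (1.11 TPM) and Sfrp5 (0.88 TPM) each had their highest level of all 20 libraries on day 4 of this arm, and were too low to test. Markers of the primitive streak (T, Mixl1, Eomes and Mesp1) summed to 0.49, 1.75, 10.4, 19.8 and 27.1 TPM over the days of OvSvK, moving with Wnt8a. Mesp1 was at 0 in every library of that arm. In OSK these markers summed to at most 0.91 TPM. Their part in these levels was not tested.

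**Figure D4:**
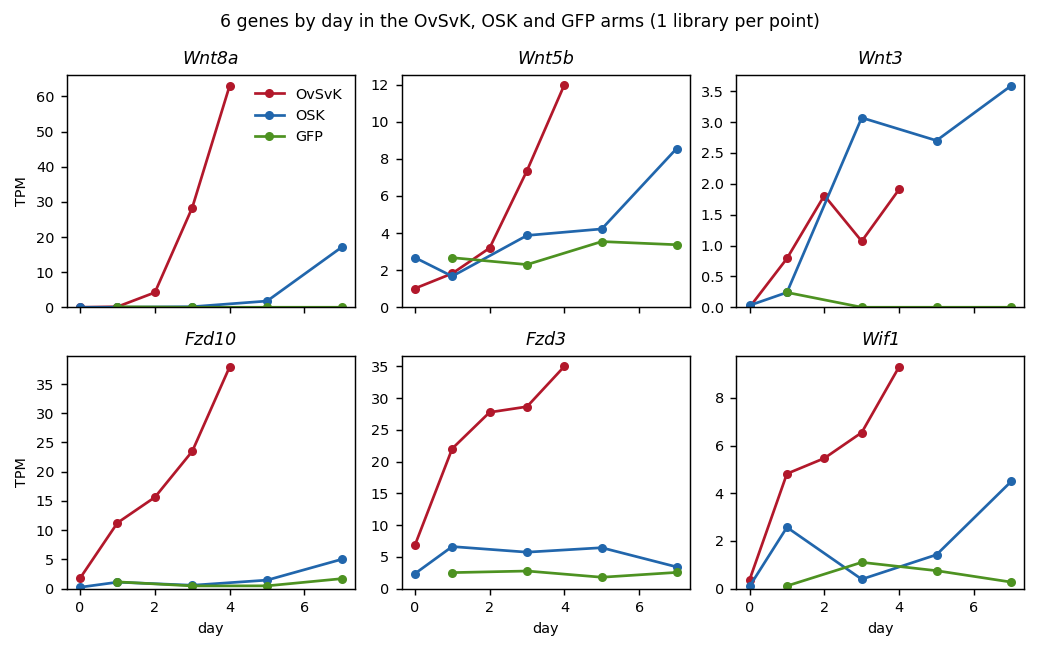
Level in TPM (vertical axes) by day (horizontal axes) of Wnt8a, Wnt5b, Wnt3, Fzd10, Fzd3 and Wif1 in OvSvK (red), OSK (blue) and GFP (green); each point is 1 library. Wnt8a reaches 63.09 TPM on OvSvK day 4 and 17.13 TPM on OSK day 7 and is at 0.14 TPM or below in GFP, and Fzd10 and Fzd3 are highest in OvSvK from day 1 on.

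In GFP no gene of the family was called by edgeR (0 of 36, against 4.8% of all genes, 2.07% rising and 2.73% falling), with 6 at an unadjusted p under 0.05: Wnt5a, Wnt16, Dkk3, Frzb, Sfrp1 and Sfrp4. DESeq2 called 2 of them, Wnt5a (0.22 ± 0.08 per day, adjusted p = 0.0255) and Wnt16 (0.63 ± 0.18, adjusted p = 0.00809), and limma called 0. Wnt16, a ligand, read 0.22, 5.34, 7.92 and 11.80 TPM in GFP. The slopes of OSK and GFP themselves were compared with an interaction term, which called 2 genes, Lrp5 and Wnt2, both lower in OSK (2 of 36, against 6.22% of all genes, with 3.38% lower). For Lrp5, which read 33.83 to 37.57 TPM in all GFP libraries, the difference was -0.47 ± 0.10 per day on the log2 scale (adjusted p = 0.0207). For Wnt2, at 0.35 to 1.28 TPM in GFP, it was -1.04 ± 0.28 (adjusted p = 0.0488). No gene was called without GFP day 1 or without GFP day 7 (for Lrp5, adjusted p = 0.264 and 0.251).

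OvSvK and OSK share days 0, 1 and 3, and their comparison asks what the VP16-fused factors change. No gene of the family passed edgeR's test (0 of 30), nor did any of 12910 genes (0%), in a fit with 2 residual degrees of freedom. At an unadjusted p under 0.05 there were 7: Fzd3, Fzd8, Fzd10, Sfrp1, Sfrp2, Sfrp4 and Wif1. DESeq2 called 5 and limma 0. Fzd10 read 1.77, 11.25 and 23.49 TPM in OvSvK on days 0, 1 and 3 and 0.22, 1.09 and 0.56 TPM in OSK (log2 difference 3.69 ± 0.66, adjusted p = 0.0543). The OvSvK level was the higher on each day. Sfrp4 read 28.22, 17.40 and 20.70 TPM against 2.43, 2.61 and 6.90 TPM (2.37 ± 0.45, adjusted p = 0.0546), and Fzd3 6.78, 22.04 and 28.65 TPM against 2.33, 6.61 and 5.73 TPM (1.64 ± 0.40, adjusted p = 0.0759). In the authors' scores the order of Fzd3 on day 0 was the opposite, with 178 in OvSvK and 246 in OSK. DESeq2 gave adjusted p-values of 4.97e-07, 4.27e-05 and 0.00208 for Fzd10, Sfrp4 and Fzd3. Without day 0 or without day 3 edgeR called 4 genes each, Fzd10 and Sfrp4 both times. Without day 1 no gene of the family was called. These fits have fewer residual degrees of freedom than the 2 above, and the share of all genes they called is not given here.

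On day 3 alone, by a rule of at least 5 CPM (counts scaled for library depth) in 1 of the libraries compared and a 2-fold difference, OvSvK exceeded OSK for Fzd3, Fzd10, Ror2, Sfrp2, Sfrp4 and Wnt8a and was below it for Dkk3 and Wnt16. These are 6 and 2 of 21 genes, against 11.9% and 9.92% of all genes; 1 library stands on each side and no test was possible. Wnt8a read 28.37 TPM in OvSvK and 0.16 TPM in OSK on that day. On day 1, 4 of 21 genes were higher in OvSvK (Fzd3, Fzd10, Sfrp2 and Sfrp4, background 15.8%) and 3 lower (Fzd8, Wnt2 and Wnt16, background 7.66%). On day 0, 7 of 26 were higher (background 24.1%), Wnt5a and Sfrp4 among them, and 6 lower (background 22.5%). On the last day of each arm (day 4 of OvSvK and day 7 of OSK, which differ in time) 5 of 21 genes were higher in OvSvK (Fzd3, Fzd10, Lrp5, Wif1 and Wnt8a, background 10.6%) and 2 lower (Dkk3 and Fzd8, background 9.66%). Against GFP on day 3, 8 of 24 genes were 2-fold higher in OvSvK (background 22.4%) and 12 lower (17.6%); on day 1 these were 7 (25.6%) and 8 (16.9%) of 23. Fzd3, Fzd10, Sfrp1, Sfrp4 and Dkk2 were higher than in GFP on both days, and Fzd1, Fzd2, Ror2, Wnt2b, Wnt9a, Frzb and Dkk3 lower. In the authors' scores Dkk2 was lower in OvSvK on day 1 (264, against 410 in GFP). The OvSvK and GFP libraries fall in different sets, so arm cannot be told apart from set here. Neural markers (Sox1, Tubb3, Pax6 and Gfap) summed to 157 to 650 TPM in OvSvK, 20.1 to 96.2 TPM in OSK and 4.26 to 13.9 TPM in GFP; their part in the receptor levels was not tested.

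Leaving out the GSK3 inhibitors asks how the family depends on pharmacological activation of the beta-catenin pathway. On days 3 and 7, Wnt8a, Wnt3 and Fzd6 were lower without the inhibitors than in full OSK medium and Wnt2, Wnt9a, Frzb and Fzd2 were higher. These are 7 of 32 tested genes, 4 higher and 3 lower, against 23.3% of all 14191 genes (9.97% higher and 13.3% lower). Wnt8a read 0.16 and 17.13 TPM in OSK and 0 and 1.79 TPM without the inhibitors (log2 difference -3.34 ± 0.54, adjusted p = 0.00351). Only its day 7 levels were high enough to differ, and without either day 7 library the adjusted p was 0.299 or 0.351. Wnt3, a ligand that acts through beta-catenin, read 3.07 and 3.59 TPM in OSK and 1.1 and 1.53 TPM without the inhibitors (-1.38 ± 0.41, adjusted p = 0.0357). Fzd6 read 65.74 and 39.75 TPM against 26.64 and 26.96 TPM (-0.98 ± 0.23, adjusted p = 0.0146). Of the higher genes, Wnt2 read 1.62 and 0.34 TPM in OSK and 5.37 and 4.32 TPM without the inhibitors (2.45 ± 0.53, adjusted p = 0.0109), and Wnt9a 4.52 and 2.23 TPM against 8.40 and 8.78 TPM (1.42 ± 0.33, adjusted p = 0.0144). Frzb read 2.12 and 2.31 TPM against 6.16 and 5.19 TPM (1.23 ± 0.39, adjusted p = 0.0458) and Fzd2 7.72 and 8.11 TPM against 16.21 and 14.89 TPM (0.94 ± 0.23, adjusted p = 0.0192). Each of the 4 was higher without the inhibitors on each day. In the arm without bFGF, Wnt2, Wnt9a and Fzd2 were called higher than in OSK as well, and Wnt8a and Fzd6 lower. Both omission arms lie in the other set of libraries from OSK on these days, so medium and set cannot be told apart. By the 2-fold rule on single days, 2 of 19 genes were higher on day 3 (background 7.09%) and 2 lower (9.12%), and 3 of 22 were higher on day 7 (11.9%) and 4 lower (15.1%). Without the day 7 library of this arm no gene was called, and Frzb and Wnt3 lost their calls in several other fits without 1 library (adjusted p up to 0.139 and 0.089). Removal of a GC trend ended the calls on Fzd2, Fzd6, Wnt9a and Frzb (adjusted p = 0.115, 0.0742, 0.0755 and 0.0586), and limma did not call Wnt3 or Wnt8a (0.0817 and 0.119).

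The arms without bFGF and without vitamin C belong to the same set of libraries as the arm without inhibitors, so the inhibitors were also compared against these omissions. There 4 of 32 genes passed, 1 higher and 3 lower, against 9.75% of all genes (4.31% higher and 5.45% lower). Frzb was higher without the inhibitors: 6.16 and 5.19 TPM, against 1.59 and 1.81 TPM without bFGF and 1.55 and 1.52 TPM without vitamin C (1.87 ± 0.33, adjusted p = 0.00896). The Frzb levels of OSK, 2.12 and 2.31 TPM, lay with those of the other omissions. Wnt8a was lower, at 0 and 1.79 TPM against 0.08 and 4.95 TPM and 0.18 and 19.17 TPM (-2.42 ± 0.50, adjusted p = 0.0167). Wnt3 was lower, at 1.1 and 1.53 TPM against 2.42 and 6.55 TPM and 2.28 and 4.45 TPM (-1.48 ± 0.37, adjusted p = 0.0321). Wnt3 and Wnt8a were lower and Frzb was higher without inhibitors against OSK and against the other omissions. The 2 comparisons share the libraries without inhibitors. Of the other genes called against OSK, Wnt2, Wnt9a, Fzd2 and Fzd6 did not pass here. Sfrp4 was lower here too (-1.28 ± 0.27, adjusted p = 0.0184), with 9.44 and 15.32 TPM against 46.70 and 55.09 TPM without bFGF and 11.72 and 22.73 TPM without vitamin C. Fzd10 read 0.75 and 0.41 TPM without the inhibitors and 5.01 to 7.85 TPM on day 7 in the other 3 media, but its difference did not pass (-2.18 ± 0.74, adjusted p = 0.0965). Pluripotency markers summed to 120 and 187 TPM without the inhibitors and to 211 and 787 TPM in OSK, and their part in the Wnt8a and Wnt3 levels was not tested. No gene was called without the day 7 library of the inhibitor omission (adjusted p = 0.155 for Frzb, 0.412 for Wnt3, 0.229 for Sfrp4 and 0.731 for Wnt8a) or without that of the bFGF omission (0.0769, 0.151, 0.0531 and 0.205). Without the day 3 library of the inhibitor omission Frzb (0.056), Wnt3 (0.108) and Sfrp4 (0.11) were not called, and without day 7 of the vitamin C omission Wnt3 (0.0757) and Wnt8a (0.309) were not.

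**Figure D5:**
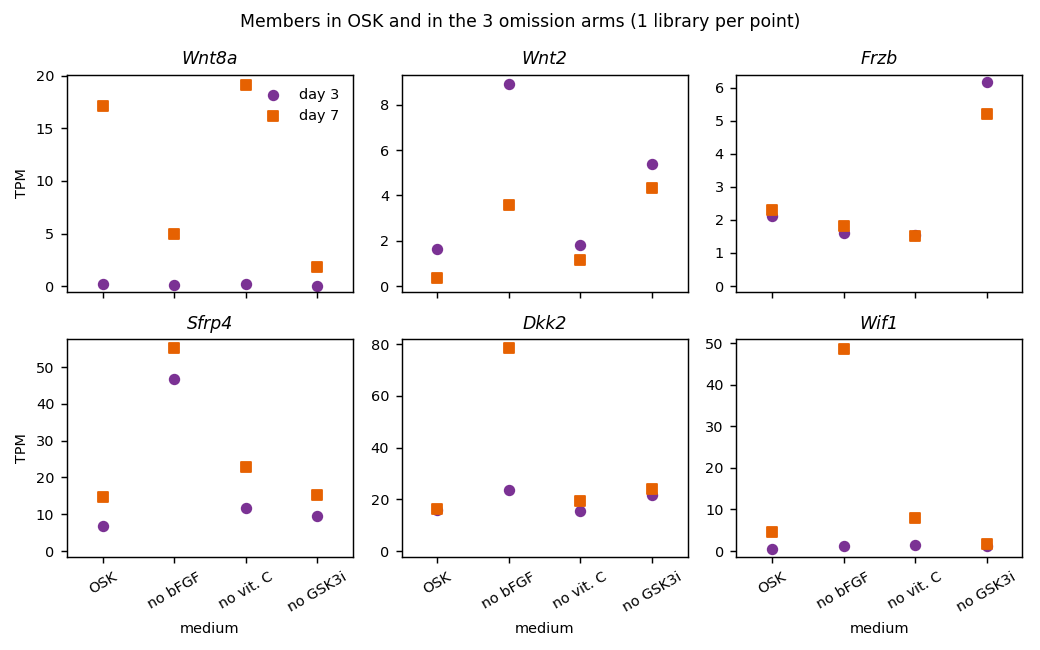
Level in TPM (vertical axes) of Wnt8a, Wnt2, Frzb, Sfrp4, Dkk2 and Wif1 in OSK and in OSK without bFGF, vitamin C or GSK3 inhibitors (horizontal axes), on day 3 (circles) and day 7 (squares); each point is 1 library. Frzb is highest without the inhibitors, Sfrp4 and Dkk2 are highest without bFGF on both days and Wif1 on day 7, and Wnt8a on day 7 is highest in OSK and without vitamin C.

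Without bFGF, a growth factor that maintains fibroblasts and several stem cell types in culture, 10 of 32 genes differed from OSK, 8 higher and 2 lower, against 12.5% of all genes (4.71% higher and 7.77% lower). Sfrp4 read 6.90 and 14.59 TPM in OSK and 46.70 and 55.09 TPM without bFGF (2.35 ± 0.31, adjusted p = 0.00395), Dkk2 15.77 and 16.25 TPM against 23.61 and 78.70 TPM (1.56 ± 0.33, adjusted p = 0.019), and Dkk3 25.81 and 28.75 TPM against 42.81 and 67.63 TPM (1.03 ± 0.19, adjusted p = 0.0111). All 3 were higher without bFGF on each day. Wif1 read 0.39 and 4.50 TPM in OSK and 1.17 and 48.50 TPM without bFGF, its highest level in any library, and did not pass. Wnt2 (1.62 and 0.34 TPM against 8.90 and 3.59 TPM; 2.71 ± 0.52, adjusted p = 0.0125) and Fzd2 (7.72 and 8.11 TPM against 19.97 and 18.40 TPM; 1.31 ± 0.23, adjusted p = 0.0101) were higher, as were Ror1, Wnt9a and Lrp5, by 1.12 to 2.23 on the log2 scale. Wnt8a (0.08 and 4.95 TPM) and Fzd6 (24.06 and 30.22 TPM) were lower, by -1.83 ± 0.48 (adjusted p = 0.0341) and -0.89 ± 0.23 (adjusted p = 0.0311). This comparison lies across both sets of libraries, and Fzd2 and Lrp5 read above OSK in all 3 omission arms. Fzd2 read 11.15 and 11.28 TPM without vitamin C and 16.21 and 14.89 TPM without the inhibitors. Lrp5 read 23.84 and 28.54 TPM and 21.07 and 21.04 TPM there, against 18.76 and 13.16 TPM in OSK. Dkk3 without vitamin C (18.89 and 24.06 TPM) was below OSK. Medium and set cannot be told apart. Fibroblast markers summed to 6451 and 3926 TPM without bFGF and to 3825 and 1137 TPM in OSK, and their part was not tested. Only Dkk2 was called without the day 3 library of this arm and only Sfrp4 without its day 7 library; 5 genes were called without OSK day 7. Without vitamin C, edgeR called no gene of the family (0 of 32, against 0.296% of all genes, 0.0423% higher and 0.254% lower), DESeq2 and limma 0 as well, and 4 had an unadjusted p under 0.05 (Dkk3, Fzd3, Lrp5 and Sfrp2). The edgeR fit without OSK day 3 did call genes of the family, but it leaves 1 library of OSK, and its share over all genes is not given here. In the arm without vitamin C, Wnt8a read 0.18 and 19.17 TPM and Wnt3 2.28 and 4.45 TPM.

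The other genes of the pathway give the setting of these levels. Of 11 genes that beta-catenin is known to induce as feedback or targets (Axin2, Nkd1, Znrf3, Rnf43, Lgr5, Notum, Sp5, Lef1, Tcf7, Apcdd1 and Ccnd1), 7 were lower and 0 higher without GSK3 inhibitors than in OSK (median log2 difference -1.52), where 13.3% and 9.97% of all genes were. Against the other omissions 5 were lower and 0 higher, where 5.45% and 4.31% of all genes were. Axin2, which rebuilds the destruction complex, read 25.13 and 42.48 TPM in OSK on days 3 and 7 and 3.98 and 4.77 TPM without the inhibitors (-2.85 ± 0.40, adjusted p = 0.00268). Its levels in GFP were 23.72 to 36.73 TPM. In the OSK time course 7 of the 11 rose and 0 fell (21.5% and 24% of all genes), and in OvSvK 5 rose and 1 fell (4.49% and 5.81%). Notum, an enzyme that inactivates Wnt proteins, read 0.93 TPM on day 0 and 115.37 TPM on day 7 of OSK (0.92 ± 0.11 per day, adjusted p = 0.000405). Between OSK and GFP, where 16.8% of all genes were higher and 14% lower, 1 was higher (Lef1) and 1 lower (Apcdd1) of 10 tested. Of the genes that ligands need for secretion, Porcn, which attaches the lipid, was higher in OSK than in GFP (9.01, 12.57, 20.09 and 50.60 TPM against 3.20 to 4.34 TPM; 2.09 ± 0.43, adjusted p = 0.0188), while Wls, the carrier of the ligands, was not called. Of 8 tested R-spondins and their receptors, Lgr4, a receptor for R-spondins, was higher in OSK (97.12 to 213.58 TPM against 11.50 to 35.56 TPM; 2.41 ± 0.21, adjusted p = 0.00189) and Rspo2 and Rspo4, ligands that strengthen Wnt signals, were lower. In the same comparison the cytoplasmic components showed 0 higher and 1 lower of 16, and the nuclear components 4 higher and 2 lower of 12, against 30.7% called over all genes. These lists were chosen with earlier results of the data known, and their counts are descriptions.

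The authors' deposited table of the whole series also holds scores for mouse embryonic stem cells (mESC, cell type OG2ES) and for MEFs, 1 column each, labelled as re-analysed. They were made with another RSEM version on mm9, while the other libraries were on mm10, and the table's columns share 1 maximum, the form of quantile-normalized values, in a unit that is not stated. It lists 32 of the 40 genes, 29 with a score of at least 50 in 1 of these columns. By a 2-fold rule chosen after the values were seen, 19 of the 29 were higher in MEF and 4 in mESC, where 26.3% of all 12188 such genes lay in each direction. The 4 were Fzd5 (409 in MEF, 1938 in mESC), Fzd9 (4 and 116), Fzd10 (6 and 850) and Wnt7b (0 and 420). In the GFP arm, whose cells were also MEFs, the Wnt7b scores were 120, 54, 210 and 125. Wnt5a (3354 and 35), Fzd1 (2529 and 88) and Dkk3 (2542 and 135) were among the 19. On that scale Fzd10 stood at 844 in OvSvK on day 4 and at 133 in OSK on day 7, and Fzd5 at 1307 and 1993. Wnt8a stood at 2 in MEF and 3 in mESC but at 572 in OvSvK on day 4 and 172 in OSK on day 7, above both reference columns. With 1 column on each side and different builds, these values carry no test.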

How the data were processed

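The authors deposited, for each of 20 libraries, a gene table with an expected count and a TPM made by RSEM 1.2.4 on mm10, per the submitters' processing notes; the 2 re-analysed samples used RSEM 1.1.21 on mm9 and appear only in a deposited table of the whole series. That table's values are a score: its deposited columns are whole numbers with 1 shared maximum, and how the authors scaled them is not stated. RNA was Trizol-extracted and prepared with TruSeq kits, per the labels' protocols; the sources used here give neither aligner settings nor strand. Tables held 24130 gene IDs; symbols came from the series table (12897) or GENCODE M21 (10788), and 445 had none.

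Expected counts were rounded and tested with edgeR 4.0.16 in R 4.3.3 (TMM normalization, filterByExpr by arm, robust quasi-likelihood fit, Benjamini-Hochberg over all genes tested, threshold 0.05). Fits were OSK and GFP with day as a block (8 libraries, 3 residual degrees of freedom), a line over days per arm (14 libraries, 8), OvSvK and OSK on shared days (6 libraries, 2), and OSK with its omissions (8 libraries, 3). Numbers after ± are standard errors of log2 differences. Levels are TPM. Single-library comparisons used a 2-fold rule at 5 CPM. Scripts were tested on simulated counts, which varied less than the real ones in every fit but that of OSK with its omissions. That checked the code and not the error rates in these data. Alternatives were DESeq2 1.42.0, limma 3.58.1 on log2(TPM + 1), RLE normalization, no filter, no block, removal of a GC trend, and leaving out libraries or days. Genes at 5 CPM or more in any library were named, those called with their test, at most 10 per direction with the smallest p. The members, lists and tests were chosen with earlier results of these data known. Promoter sequences are RefSeq's, on GRCm38.p6. Intervals and limits on counts cover counting error only.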

Additional observations from a re-analysis of the deposited data

Results flagged for a closer look

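For 2 genes the change per day differed between OSK and GFP by the interaction term of edgeR's fit, both lower in OSK. For Lrp5 the slope in OSK minus that in GFP was -0.47 log2 units per day (SE 0.10, adjusted p = 0.0207), and for Wnt2 it was -1.04 (SE 0.28, adjusted p = 0.0488). Lrp5 went from 43.18 TPM on day 1 to 13.16 TPM on day 7 in OSK and stayed at 33.83 to 37.57 TPM in GFP. Without OSK day 0 the Lrp5 difference was -0.38 (SE 0.09, adjusted p = 0.026), and neither gene was called without GFP day 1 or without GFP day 7 (for Lrp5, adjusted p = 0.264 and 0.251). The Wnt2 call was also lost in most other fits without 1 library; its adjusted p there ran from 0.0296 to 0.511.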

How the results depend on the processing

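Leaving out 1 day or library at a time gave 7 to 22 calls for OSK against GFP, 8 to 22 for the change per day in OSK, 1 to 13 in OvSvK, 0 to 2 in GFP, 0 to 4 for the difference of slopes, 0 to 4 for OvSvK against OSK, 0 to 10 without GSK3 inhibitors, 1 to 13 without bFGF, 0 to 4 without vitamin C, and 0 to 8 for the inhibitors against the other omissions. Without OSK day 0 and GFP day 1 together, an alternative chosen after seeing the data, the slopes gave 10 calls in OSK, 15 in OvSvK and 0 for the difference. DESeq2 gave 2 calls for GFP, 9 for the difference of slopes and 5 for OvSvK against OSK. The difference of slopes had 1 call each with RLE normalization, without the filter and with limma. OvSvK against OSK had 4 calls without the filter and 3 after removing the GC trend, which left 1 call in GFP and 3 without GSK3 inhibitors. With limma there were 4 calls without bFGF and 2 for the inhibitors against the other omissions, which had 8 in a fit of the 3 omission arms alone. The slopes of Wnt10b and Wnt11 in OSK turned from falling to 0.08 and 0.01 per day without OSK day 0, alone or with GFP day 1; over the fits without 1 library they ran from -1.03 to 0.08 and from -0.68 to 0.01. Of 1053 values of single genes under alternatives, 836 kept direction and call, 213 kept direction but lost the call, and 4 reversed. The causes were not tested. Leaving out a whole day of the omission fit could not be run, since no residual degrees of freedom remain. OSK against GFP had 19 calls without the block on day; the labels give no replicate numbers to pair samples by. With 7872278 to 20720724 counts per library, ligands under about 1 TPM rest on few counts.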
